A study of Homo sapiens with 16 samples.

Results

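The genes described here build the DNA replication machinery of human cells. They are 52 genes for origin licensing, the replication fork and nucleotide supply, chosen by symbol from a table of read counts on 23354 genes. All 52 were in the table, and all 52 passed the filter on low counts that left 14215 genes for testing. The counts came from Ribo-Zero RNA-seq, in which ribosomal RNA is removed from total RNA before sequencing, in 16 libraries of the human multiple myeloma lines MM1S and MM1R. MM1S is glucocorticoid sensitive and MM1R is its glucocorticoid resistant counterpart. Each line was treated for 48 h with vehicle control, with 0.1 µM TAK-981, with 1 µM dexamethasone (Dex) or with both drugs at those doses (combo), which gave 8 groups of 2 libraries. TAK-981 blocks SUMO E1, the enzyme that activates SUMO for attachment to proteins, and Dex is a synthetic glucocorticoid. The study asked which genes change when inhibition of SUMOylation is added to Dex in sensitive and resistant cells. Each line is a single established culture, so the results describe these lines and not myeloma in general.

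Replication starts when the origin recognition complex (ORC), with CDC6 and CDT1, loads the MCM2-7 helicase onto DNA in G1. CDC45, the GINS complex and MCM10 then switch the helicase on in S phase, and polymerases, the sliding clamp PCNA, its loader RFC and the single-strand binding protein RPA copy the DNA with nucleotides made by ribonucleotide reductase and thymidylate synthase. Many of these genes are transcribed by E2F factors late in G1, whereas most ORC subunits are made throughout the cycle. In libraries from a whole culture, fewer cells in S phase and less RNA per cell cannot be told apart.

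Promoter sequence is shown first, since a short sequence element that was not used to choose the members was frequent, though not general, among them. RefSeq (GRCh38.p14) had a 300-base window, from 250 bases before to 50 after the start site, for 45 of the 52 members. The E2F-type element was searched on both strands as TTTCCCGC, TTTCGCGC, TTTGCCGC and TTTGGCGC, and it was present in 20 of the 45 windows (44.4%) against 3.33% of all 27305 windows. The CCAAT box (CCAAT) was in 57.8% of member windows and 35.7% of all. The E-box CACGTG was in 15.6% and 7.43%. The CHR element of mitotic promoters (TTTGAA or TTCGAA) was in 4.44% and 16.6%. The windows of all genes were not matched to the members by expression or base composition. A match describes the letters in the window and says nothing of binding. The stretches below lie upstream of the start site, on the strand of the gene, with E2F-type letters in capitals. They are from CDT1 (chr16:88803692-88803781), MCM6 (chr2:135876514-135876603), GINS2 (chr16:85688958-85689047), POLA2 (chr11:65261847-65261936), PCNA (chr20:5126654-5126743), RFC3 (chr13:33818032-33818121), LIG1 (chr19:48170431-48170520), TYMS (chr18:657552-657641), DTL (chr1:212035658-212035747) and ORC3 (chr6:87590045-87590134). CDT1, POLA2, PCNA, RFC3, TYMS, DTL and ORC3 have 1 match each, as do GINS2 and LIG1, while MCM6 has 4 in 2 overlapping pairs. ORC3 is shown because it carried the letters and yet did not pass the test after TAK-981 or Dex alone in either line.
CDT1 promoter: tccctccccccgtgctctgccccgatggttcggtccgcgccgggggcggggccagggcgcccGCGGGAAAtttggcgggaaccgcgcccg
MCM6 promoter: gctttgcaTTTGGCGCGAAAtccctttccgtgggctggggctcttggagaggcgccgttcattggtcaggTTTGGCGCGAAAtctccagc
GINS2 promoter: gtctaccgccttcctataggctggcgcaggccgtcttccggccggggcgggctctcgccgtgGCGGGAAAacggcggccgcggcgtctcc
POLA2 promoter: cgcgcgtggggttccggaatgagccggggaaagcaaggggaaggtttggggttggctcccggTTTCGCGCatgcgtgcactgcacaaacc
PCNA promoter: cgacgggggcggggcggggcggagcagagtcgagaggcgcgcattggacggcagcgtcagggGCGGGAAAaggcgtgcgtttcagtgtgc
RFC3 promoter: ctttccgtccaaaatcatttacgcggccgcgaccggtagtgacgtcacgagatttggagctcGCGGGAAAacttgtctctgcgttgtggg
LIG1 promoter: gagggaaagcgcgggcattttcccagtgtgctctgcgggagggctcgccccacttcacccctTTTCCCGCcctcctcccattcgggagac
TYMS promoter: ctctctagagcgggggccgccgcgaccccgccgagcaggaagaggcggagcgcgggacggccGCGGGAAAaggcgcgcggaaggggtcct
DTL promoter: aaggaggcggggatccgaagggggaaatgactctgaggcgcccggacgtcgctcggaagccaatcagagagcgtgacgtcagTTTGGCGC
ORC3 promoter: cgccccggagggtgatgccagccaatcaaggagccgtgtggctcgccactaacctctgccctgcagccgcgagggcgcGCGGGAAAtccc

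**Figure D1:**
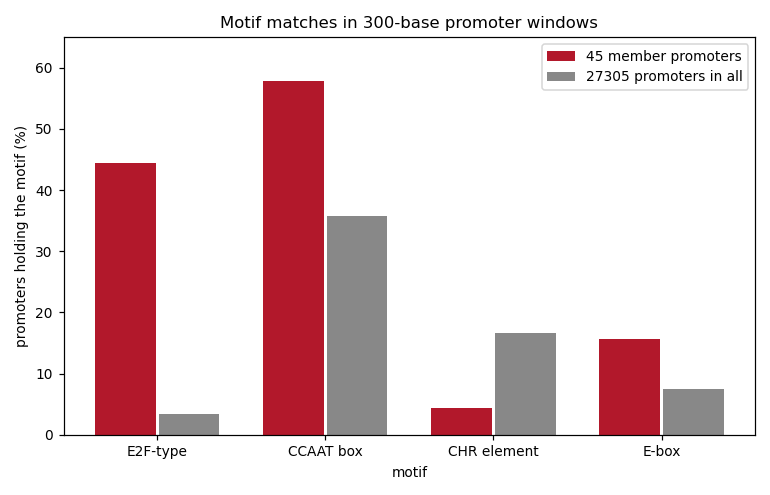
Share of 300-base promoter windows (y axis, %) that hold each of 4 motifs, for 45 members (red) and all 27305 windows (grey). The E2F-type element has the widest gap, 44.4% against 3.33%, and the CHR element is the only one of these 4 that is rarer among the members.

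Levels are given as CPM, the count scaled to the TMM-adjusted size of its library, and libraries held 15707587 to 24796539 counts. With vehicle, the 52 members together took 5293 and 5233 CPM in the 2 MM1S libraries and 7507 and 7773 CPM in the 2 MM1R libraries. Per kb of transcript, RRM2 was the most abundant member in both lines, at 143 CPM per kb in MM1S and 307 in MM1R. RRM2 is the small subunit of ribonucleotide reductase. TYMS (105 and 176 CPM per kb), PCNA (87.2 and 130), MCM3 (85.8 and 118) and FAM111B (76.1 and 113) followed in the same order in both lines. POLE2, a subunit of polymerase epsilon, was lowest, at 2.59 and 3.33 CPM per kb. It reached only 11 counts in 1 library and lies within the span of NEMF on the same strand, so its values are the least certain. In 41 members every library held at least 100 counts.

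Myeloma and plasma cell markers were present in every library, with all 7 (SDC1, TNFRSF17, IRF4, PRDM1, XBP1, CD38 and SLAMF7) between 6.89 and 1436 CPM. The labels also call the cells B lymphoblasts, yet the B cell markers MS4A1 and PAX5 never exceeded 0.532 CPM. Markers of T and NK cells, monocytes, erythroid cells, stroma and epithelium stayed at or under 12.7 CPM. The 2 replicates of a group differed beyond counting noise in every group, most in MM1S with TAK-981 and with Dex (chi-square per degree of freedom 22.6 and 20.4, against 2.15 to 9.66 in the other groups). The labels do not say whether replicates were separate cultures, so the p-values measure the spread between these libraries, which may be technical. MALAT1, a nuclear long non-coding RNA, took 2.85 to 3.47% of counts in vehicle and Dex libraries and 5.22 to 6.17% in TAK-981 and combo libraries. Its part in the changes below was not tested.

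TAK-981 lowered nearly the whole machinery in both lines. The summed level of the 52 members fell to 2110 and 2310 CPM in MM1S and to 3793 and 3811 CPM in MM1R, which is 42% and 49.8% of the vehicle mean. In MM1S, 50 of 52 members fell past the threshold (edgeR quasi-likelihood test, adjusted p under 0.05 over all genes tested), where 23.7% of all genes tested fell. Their median log2 fold change was -1.34, beside 0.04 over all genes. In MM1R, 50 members fell as well, beside 27.6% of all genes, with a median of -0.995 beside 0.00. None of the 52 rose past the threshold in either line, whereas 25.2% of all genes rose in MM1S and 25.8% in MM1R. Treated libraries did not overlap vehicle libraries and were lower for 50 members in MM1S and 51 in MM1R, beside 32.8% and 40.9% of all genes. In MM1S, 39 members were at under 50% of vehicle, and in MM1R 26 were, a level not counted over all genes.

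**Figure D2:**
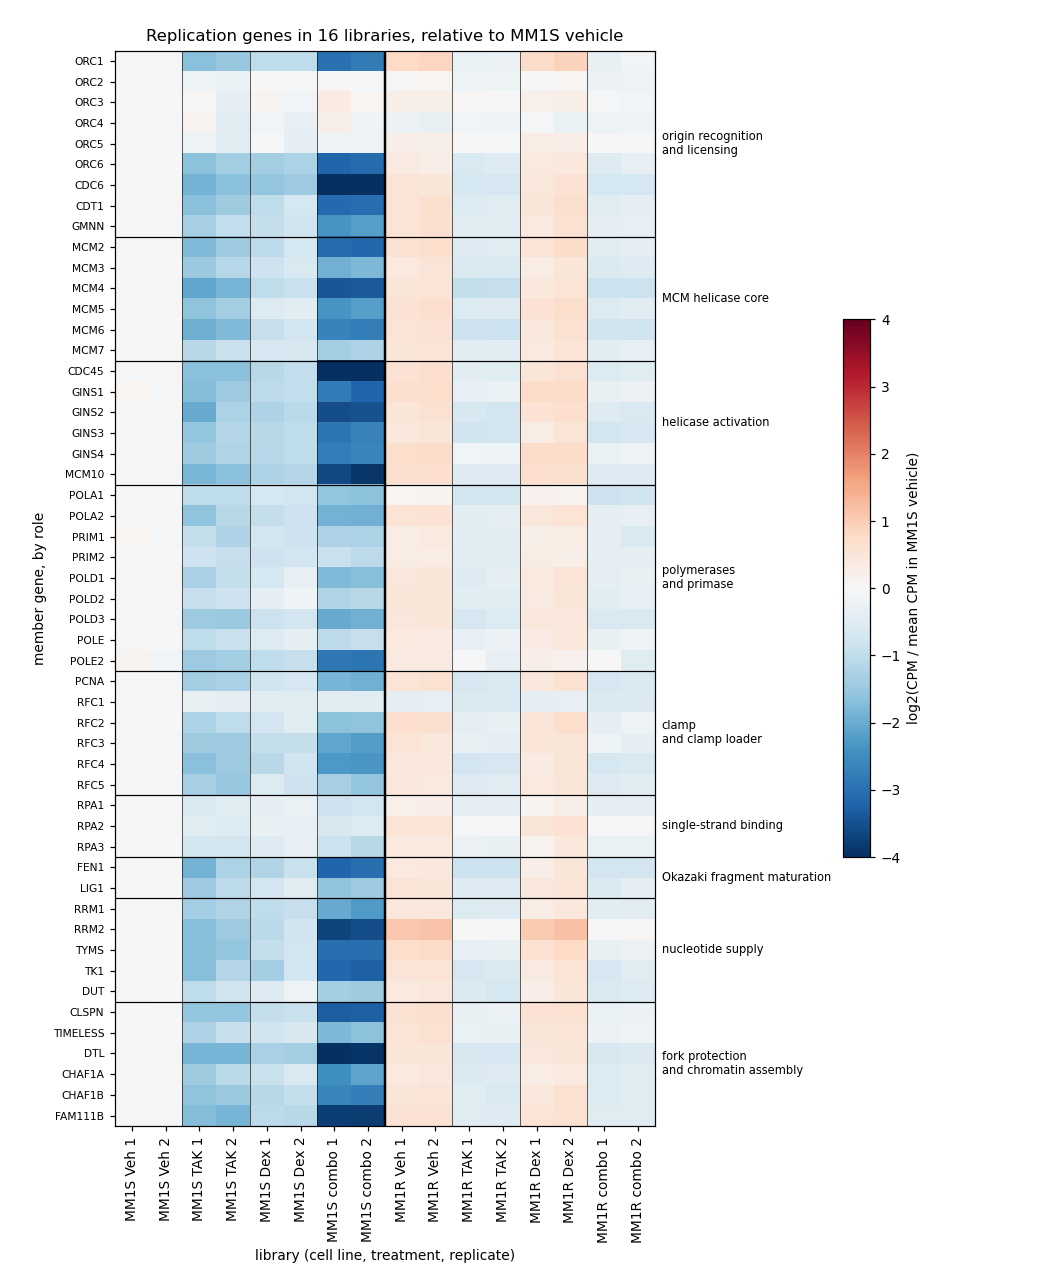
Level of each of the 52 members (rows, grouped by role) in each of the 16 libraries (columns), as log2 of CPM over the mean CPM of the 2 MM1S vehicle libraries, blue for lower and red for higher. Both MM1S combo libraries are the darkest columns, MM1R with Dex resembles MM1R with vehicle, and ORC2 to ORC5, RFC1 and the RPA genes stay pale throughout.

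Licensing genes split by subunit. The loading factor CDC6 was at 73.2 and 74.4 CPM with vehicle and 19.9 and 23.4 CPM with TAK-981 in MM1S, a log2 fold change of -1.77 (SE 0.08, edgeR adjusted p = 3.9e-12). In MM1R it went from 106 and 103 CPM to 45.5 and 46.1 CPM (-1.19, SE 0.07, edgeR adjusted p = 2.9e-10). Treated and vehicle libraries of CDC6 did not overlap in either line. ORC1 (-1.59 and -1.07 in MM1S and MM1R), ORC6 (-1.51 and -0.88), CDT1 (-1.54 and -1.10) and its inhibitor geminin, GMNN (-1.14 and -1.08), fell alike. The core subunits ORC2 to ORC5 did not follow them. ORC2 and ORC5 fell by no more than 0.31 on the log2 scale in either line, while ORC3 (-0.15 and -0.21) and ORC4 (-0.13 and 0.14) did not pass. ORC4 read 51.6 and 47.8 CPM with vehicle and 54.5 and 36.1 CPM with TAK-981 in MM1S, so its treated libraries lay on both sides of the vehicle ones. Without TAK-981 replicate 1 its MM1S value was -0.46 and passed, and without replicate 2 it was 0.13. In MM1R, ORC4 read 42.1 and 40.4 CPM with vehicle and 46.0 and 44.9 CPM with TAK-981, the only member with both treated libraries above both vehicle ones.

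All 6 subunits of the MCM helicase fell in both lines. MCM4 had the lowest log2 fold change of the 52 members in both lines. It was at 339 and 321 CPM with vehicle and 78.0 and 91.1 CPM with TAK-981 in MM1S (-1.96, SE 0.07, edgeR adjusted p = 5.1e-13). In MM1R it was at 465 and 481 CPM, then 172 and 173 CPM (-1.46, SE 0.07, edgeR adjusted p = 1.5e-11). Among the 6 subunits, MCM6 was next (-1.85 and -1.40), and MCM7 fell least (-0.99 and -0.95). MCM3 went from 273 and 275 CPM to 98.9 and 124 CPM in MM1S and from 362 and 393 to 183 and 180 CPM in MM1R. The 6 subunits form 1 ring, and their levels were thus not lowered in equal proportion. The factors that activate the ring fell alike, with medians of -1.60 in MM1S and -1.13 in MM1R over CDC45, GINS1 to GINS4 and MCM10. MCM10, which helps to open the helicase, went from 51.6 and 47.4 CPM to 13.8 and 15.4 CPM in MM1S and from 77.4 and 78.1 to 34.4 and 35.0 CPM in MM1R. GINS2 went from 16.7 and 16.6 CPM to 4.15 and 6.85 CPM in MM1S and from 23.2 and 25.6 to 10.7 and 9.95 CPM in MM1R. The 2 treated MM1S libraries of GINS2 stood further apart than those of MCM10, and both lay below the vehicle libraries.

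At the fork, the polymerase and primase genes fell by less than the helicase genes, with medians of -1.08 in MM1S and -0.82 in MM1R over 9 genes. POLD3, a subunit of polymerase delta, went from 56.1 and 52.4 CPM to 19.9 and 19.2 CPM in MM1S (-1.47) and from 73.6 and 75.4 to 33.9 and 36.8 CPM in MM1R (-1.08). POLE2 went from 5.36 and 4.61 CPM to 1.82 and 1.90 CPM in MM1S (-1.42, SE 0.19). In MM1R, POLE2 read 6.45 and 6.39 CPM with vehicle and 4.83 and 3.99 CPM with TAK-981 (-0.54, SE 0.15). That MM1R call was lost without TAK-981 replicate 2 (-0.41) and in DESeq2. PCNA, the clamp that holds polymerases on DNA, went from 187 and 178 CPM to 70.0 and 73.8 CPM in MM1S (-1.34, SE 0.07, edgeR adjusted p = 2.3e-11). In MM1R it went from 266 and 279 CPM to 115 and 119 CPM (-1.22, SE 0.07, edgeR adjusted p = 8.0e-11). Of the clamp loader, RFC2 to RFC5 fell by 1.14 to 1.55 on the log2 scale in MM1S. RFC1, its large subunit, fell by 0.34, from 214 and 199 CPM to 168 and 158 CPM. In MM1R, RFC1 fell by 0.23, from 158 and 165 CPM to 139 and 136 CPM.

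The 3 RPA genes, which coat single-stranded DNA in replication and repair, fell by 0.53 to 0.73 on the log2 scale in MM1S and by 0.59 to 0.66 in MM1R. RPA1 went from 157 and 164 CPM to 104 and 115 CPM in MM1S and from 187 and 194 to 123 and 124 CPM in MM1R. RPA3 went from 20.6 and 20.9 CPM to 12.4 and 12.6 CPM in MM1S and from 27.4 and 27.2 to 17.6 and 17.0 CPM in MM1R. These falls were clear of the replicate spread but shallow for the set. RPA3 overlaps UMAD1 on the opposite strand, with mean counts of 387 for RPA3 and 209 for UMAD1. Strand use in counting is not given in the sources used here. FEN1 and LIG1, which trim and seal Okazaki fragments, fell further. FEN1 went from 123 and 120 CPM to 32.6 and 49.9 CPM in MM1S (-1.55, SE 0.14) and from 157 and 163 to 66.6 and 66.5 CPM in MM1R (-1.27, SE 0.14). LIG1 went from 76.6 and 76.2 CPM to 27.8 and 37.2 CPM in MM1S (-1.23) and from 110 and 107 to 53.2 and 53.7 CPM in MM1R (-1.02). The treated MM1S libraries of both genes were spread more widely than the treated MM1R ones.

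The genes that supply deoxynucleotides fell together. RRM2 went from 490 and 487 CPM to 149 and 180 CPM in MM1S (-1.57, SE 0.09, edgeR adjusted p = 3.7e-10) and from 1022 and 1084 CPM to 482 and 475 CPM in MM1R (-1.14, SE 0.09, edgeR adjusted p = 1.9e-08). RRM1, the large subunit of the same enzyme, fell by 1.27 and 0.96 on the log2 scale. TYMS, thymidylate synthase, went from 169 and 163 CPM to 51.3 and 57.4 CPM in MM1S and from 271 and 285 to 132 and 135 CPM in MM1R. TYMS overlaps ENOSF1 and TYMSOS on the opposite strand, and whether counting used strand is not given in the sources used here. TK1, thymidine kinase, went from 64.3 and 65.5 CPM to 19.9 and 28.5 CPM in MM1S and from 92.0 and 94.0 to 40.6 and 43.2 CPM in MM1R. DUT, which removes dUTP, fell by 0.92 and 1.06.

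The fork-protection and chromatin-assembly group held the 2 smallest p-values of the set in MM1S, those of DTL and FAM111B. DTL, which targets CDT1 for destruction during replication, went from 157 and 150 CPM to 42.5 and 42.2 CPM in MM1S (-1.86, SE 0.06, edgeR adjusted p = 1.1e-13). In MM1R it went from 214 and 215 CPM to 98.5 and 95.8 CPM (-1.14, SE 0.06, edgeR adjusted p = 2.8e-11). FAM111B went from 280 and 261 CPM to 80.9 and 74.8 CPM in MM1S (-1.80) and from 402 and 402 to 195 and 190 CPM in MM1R (-1.06). CLSPN, claspin, which carries the checkpoint signal at stalled forks, went from 95.8 and 96.8 CPM to 32.6 and 32.6 CPM in MM1S (-1.56) and from 146 and 151 to 79.0 and 81.7 CPM in MM1R (-0.89). Replicates of these 3 genes lay close together in both lines. CHAF1A, a subunit of the histone chaperone CAF-1, went from 126 and 133 CPM to 47.8 and 60.9 CPM in MM1S and from 170 and 178 to 85.9 and 89.9 CPM in MM1R.

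**Figure D3:**
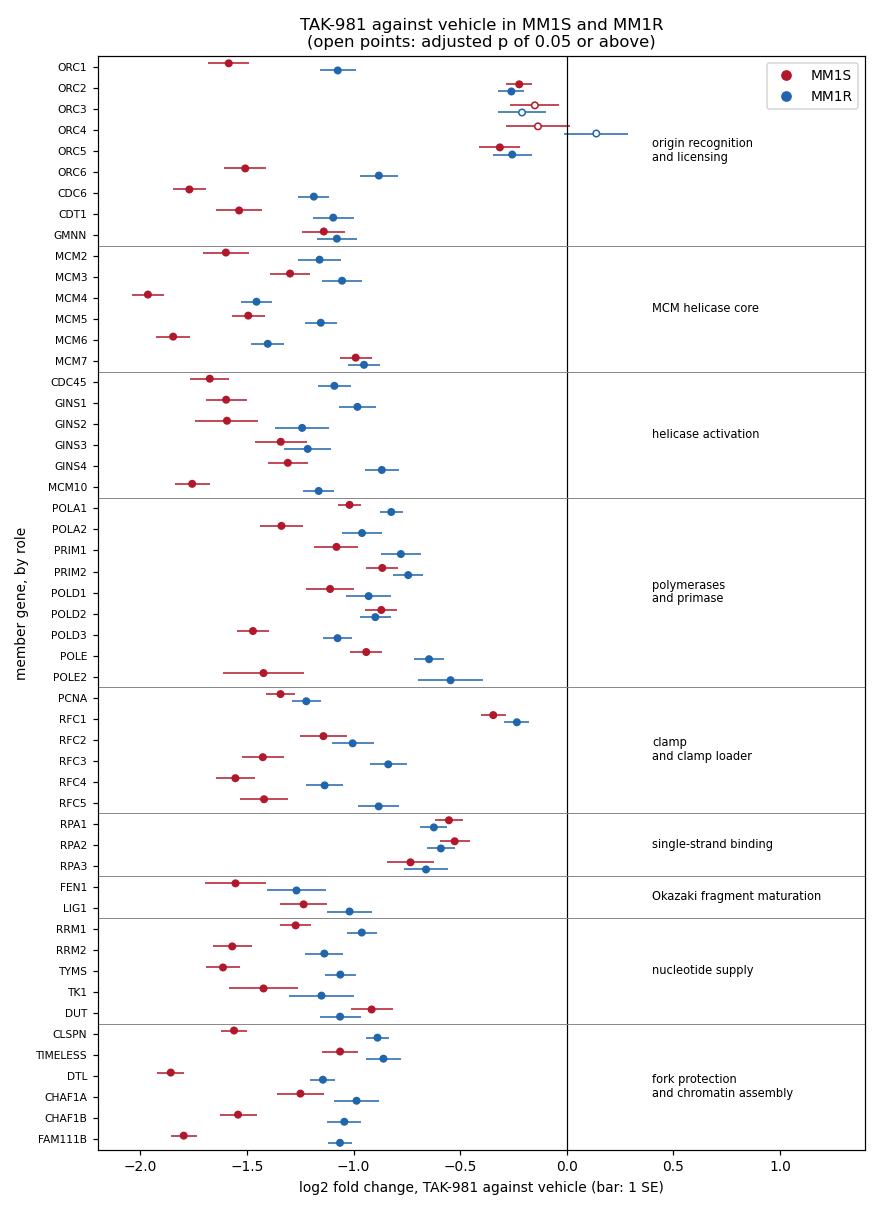
Log2 fold change of TAK-981 against vehicle (x axis) with 1 SE for each member (y axis, by role) in MM1S (red) and MM1R (blue), open points where the adjusted p was 0.05 or above. MM1S points lie left of MM1R points for 46 of 52 members, an order not counted over all genes. In MM1S, ORC2 to ORC5, RFC1 and RPA1 to RPA3 lie nearest to 0.

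The fall after TAK-981 was larger in MM1S than in MM1R for 46 of 52 members, an order not counted over all genes. The difference between the lines was tested as an interaction, and 15 members passed, all with a less negative log2 fold change in MM1R, beside 3.19% of all genes in that direction and 0.978% in the other. The median difference over the members was 0.31, beside 0.00 over all genes. Mitotic genes read beside the members differed in the same direction, with 12 of 20 past the threshold, 0 the other way and a median of 0.45. The 15 members were ORC1, ORC6, CDC6, MCM4, MCM6, CDC45, GINS1, MCM10, POLD3, RFC3, TYMS, CLSPN, DTL, CHAF1B and FAM111B. FAM111B (0.73, SE 0.08, edgeR adjusted p = 6.8e-05), DTL (0.71, SE 0.08, edgeR adjusted p = 1.0e-04) and CLSPN (0.67, SE 0.08, edgeR adjusted p = 1.4e-04) had the smallest p. RPA1 (-0.07), RPA2 (-0.06), ORC2 (-0.04) and POLD2 (-0.03) had differences near 0 that did not pass. The count of 15 moved with single libraries and with the processing, and shares of all genes under the alternatives are not given here. It was 24 with library size only in place of TMM, 23 without a filter on low counts and 28 with the replicate number as a block. It was 7 without MM1S vehicle replicate 1, 9 without either MM1R vehicle replicate or without MM1R TAK-981 replicate 1, and 26 without MM1S TAK-981 replicate 2. POLD3 (0.40) did not pass in 7 of its 8 fits with 1 library left out, where it ranged from 0.34 to 0.45 among those that failed, and MCM4 (0.51) did not pass without MM1S vehicle replicate 1 (0.47).

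Dex lowered the same machinery in MM1S and not detectably in MM1R. In MM1S the summed level went to 2968 and 3233 CPM, 58.9% of the vehicle mean. There 48 members fell and 0 rose, beside 21.5% of all genes that fell and 20.8% that rose, with a median of -0.83 beside 0.01 over all genes. The 4 that did not pass were ORC2 (-0.02), ORC3 (0.00), ORC4 (-0.22) and ORC5 (-0.18). CDC6 fell most, by 1.52 on the log2 scale (SE 0.08, edgeR adjusted p = 2.7e-11), to 24.6 and 26.7 CPM. DTL followed at -1.36 (SE 0.06, edgeR adjusted p = 4.0e-12), with 62.0 and 57.9 CPM. ORC6 (-1.32), MCM10 (-1.22) and GINS2 (-1.15) came next, and PCNA fell by 0.75 to 104 and 113 CPM. RRM2 fell by 0.93 to 233 and 280 CPM, and MCM4 by 0.96 to 162 and 178 CPM. POLD2 (-0.26), RPA1 (-0.30) and RPA2 (-0.31) fell least of those that passed. For 50 of the 52 members the fall was larger after TAK-981 than after Dex, and both sets of values share the vehicle libraries. The share of all genes with that order was not counted.

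In MM1R with Dex the summed level was 7220 and 7806 CPM, 98.3% of vehicle. edgeR called 0 of 52 members and 0% of all genes, DESeq2 also called 0 members, and 0 members had an unadjusted p under 0.05 (395 of all genes did). Member log2 fold changes ran from -0.14 to 0.09, with 95% intervals that all lay between -0.44 and 0.41. RRM2 read 1004 and 1096 CPM, on both sides of its vehicle libraries, and PCNA 248 and 277 CPM, where 1 library lay below both vehicle libraries and the other between them. CDC6 read 101 and 109 CPM, DTL 212 and 214 CPM and MCM4 441 and 479 CPM. The difference of the Dex effect between the lines passed for 44 members, all less negative in MM1R, beside 15% of all genes (13.1% were more negative), with a median of 0.79. It was 1.53 for CDC6 (SE 0.10, edgeR adjusted p = 4.3e-09), 1.35 for DTL (SE 0.08, edgeR adjusted p = 1.3e-09) and 1.09 for FAM111B (SE 0.08, edgeR adjusted p = 1.5e-08). All 20 mitotic genes read beside the members passed in the same direction, with a median of 0.99.

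The combination left MM1S with the lowest levels of all 8 groups. The summed level was 1394 and 1398 CPM, 26.5% of vehicle. Against vehicle 48 members fell and 0 rose, beside 29.5% of all genes that fell and 30.8% that rose, with a median of -2.22 beside 0.04. By the fitted fold change, 8 members were at under 10% of vehicle and 20 between 10 and 25%. Another 14 were between 25 and 50% and 10 at 50% or above, levels not counted over all genes. The 8 were CDC45 (5.8%), CDC6 (6.1%), DTL (6.4%), FAM111B (7.2%), MCM10 (7.5%), RRM2 (8.1%), GINS2 (8.8%) and MCM4 (9.6%). RRM2 read 37.2 and 42.1 CPM, CDC6 4.71 and 4.34 CPM, and CDC45, the helicase cofactor, 1.73 and 1.98 CPM from 31.2 and 33.7 CPM with vehicle. MCM4 read 30.8 and 32.3 CPM, MCM10 4.09 and 3.35 CPM, and GINS2 1.42 and 1.48 CPM. The 10 least lowered were ORC2 to ORC5, RFC1, RPA1 to RPA3, PRIM2 and POLE. ORC4 read 58.0 and 45.1 CPM, RFC1 153 and 156 CPM, RPA1 90.1 and 94.7 CPM and RPA3 11.4 and 9.62 CPM. Of these, ORC2 to ORC5 did not pass against vehicle, and the other 6 fell.

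MCM3 read 71.7 and 79.0 CPM with combo in MM1S, PCNA 50.7 and 47.9 CPM, and LIG1 25.02 and 27.8 CPM. TYMS read 20.5 and 20.7 CPM, TK1 7.37 and 6.82 CPM, and FEN1 13.4 and 14.95 CPM. DTL read 9.29 and 10.2 CPM, CLSPN 9.72 and 10.0 CPM, FAM111B 19.8 and 19.4 CPM, and CHAF1A 23.5 and 29.9 CPM. PCNA and MCM3 thus kept a larger share of their vehicle level (27.0% and 27.5%) than FEN1 (11.7%). POLD3 read 13.3 and 14.3 CPM and POLE2 0.681 and 0.660 CPM.

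In MM1R the combination lay at the level of TAK-981 alone. The summed level was 3828 and 3980 CPM, 51.1% of vehicle, beside 3793 and 3811 CPM with TAK-981. Against vehicle 51 members fell, all but ORC4, and 0 rose, beside 26.7% and 24.8% of all genes, with a median of -0.95. Against Dex 51 fell and 0 rose too, beside 25.3% and 23.1%. Against TAK-981 edgeR called 0 of 52 members and 0% of all genes, DESeq2 called 0 members, and 0 had an unadjusted p under 0.05 (214 of all genes did). Those log2 fold changes ran from -0.11 to 0.15. In MM1R with combo, RRM2 read 474 and 507 CPM, PCNA 115 and 120 CPM, CDC6 45.3 and 45.2 CPM, DTL 98.7 and 104 CPM, MCM4 182 and 182 CPM and TYMS 134 and 141 CPM. Each was close to its TAK-981 libraries and below all 4 vehicle and Dex libraries of the line.

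**Figure D4:**
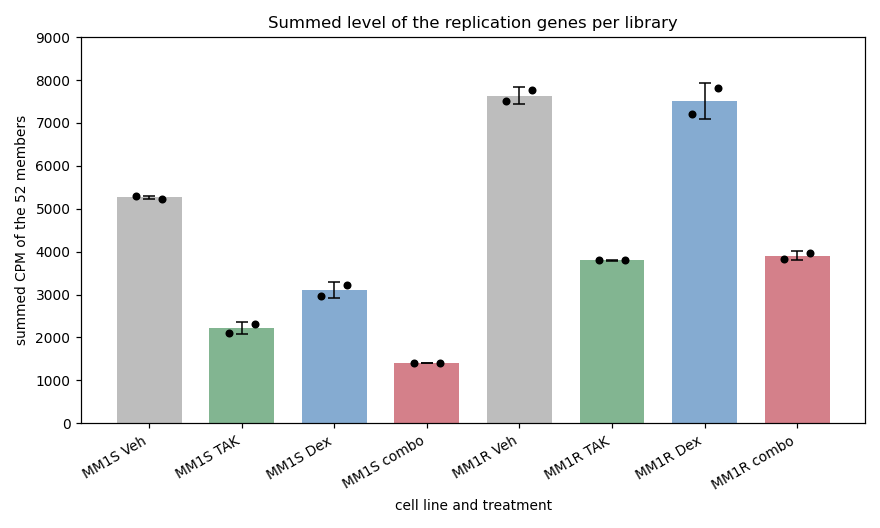
Summed CPM of the 52 members (y axis) in each of the 8 groups (x axis). Bars are means of 2 libraries, points are the libraries and error bars are 1 SD. MM1S steps down from vehicle through Dex and TAK-981 to combo (1394 and 1398 CPM), whereas in MM1R vehicle and Dex sit together, as do TAK-981 and combo.

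Adding a drug to the other in MM1S lowered most members further. Combo was lower than Dex alone for 46 members and higher for 0, beside 25.4% and 22.2% of all genes, with a median of -1.29. Combo was lower than TAK-981 alone for 40 members, beside 20.6% of all genes, with a median of -0.78, and higher for 2, beside 14.5%. The 2 were ORC2 (0.22, SE 0.06, edgeR adjusted p = 0.0095), at 62.1 and 59.4 CPM with TAK-981 and 73.8 and 68.0 CPM with combo, and ORC3 (0.35, SE 0.11, edgeR adjusted p = 0.023), at 49.8 and 36.8 CPM and then 60.6 and 50.2 CPM. The lower combo library of ORC3 was only just above its higher TAK-981 library. CDC45 (-2.44), CDC6 (-2.26), DTL (-2.11) and RRM2 (-2.05) had the lowest values of combo against TAK-981. PRIM1 (-0.17), PRIM2 (-0.10), RFC1 (-0.08), POLE (-0.03) and RFC5 (-0.02) did not pass there.

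Whether the drugs acted as the product of their single effects was tested as an interaction on the log2 scale. In MM1S 17 members passed, 11 with combo below the sum of the single log2 fold changes, beside 9.48% of all genes, and 6 above it, beside 5.47%. The median over the members was -0.07, beside -0.03 over all genes, since the members went both ways. Those below were CDC45 (-1.40), RRM2 (-1.12), FAM111B (-0.90), CLSPN (-0.81), MCM10 and DTL (-0.76 each), CDC6 (-0.73), CDT1 (-0.69), MCM2 (-0.66), TYMS (-0.54) and MCM4 (-0.46). The edgeR adjusted p was 2.7e-06 for FAM111B (SE 0.09), 2.2e-05 for CLSPN (SE 0.10) and 2.9e-05 for RRM2 (SE 0.13). These are licensing, helicase, nucleotide and fork-protection genes. Those above were PRIM2 (0.70), RFC5 (0.67), PRIM1 (0.61), POLE (0.43), RFC1 (0.41) and MCM7 (0.36), which except for MCM7 belong to the primase, polymerase and clamp loader groups. Among members that did not pass, the roles were mixed, with ORC3 to ORC5 above the sum and POLE2 below it. CDC45 held only 28 and 36 counts in its MM1S combo libraries. Genes named here outside the rule for named genes, such as CDC45, CDT1, ORC2, ORC3 and PRIM2, were chosen after their values were seen. The count was 11 when the other groups were left out of the fit, 26 with a replicate block and 27 without MM1S TAK-981 replicate 1, and the median turned to 0.03 without TAK-981 replicate 2 and to 0.07 without Dex replicate 2. In MM1R edgeR and DESeq2 called 0 of 52 members for this interaction, 0% of all genes passed, and 0 members and 400 of all genes had an unadjusted p under 0.05.

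**Figure D5:**
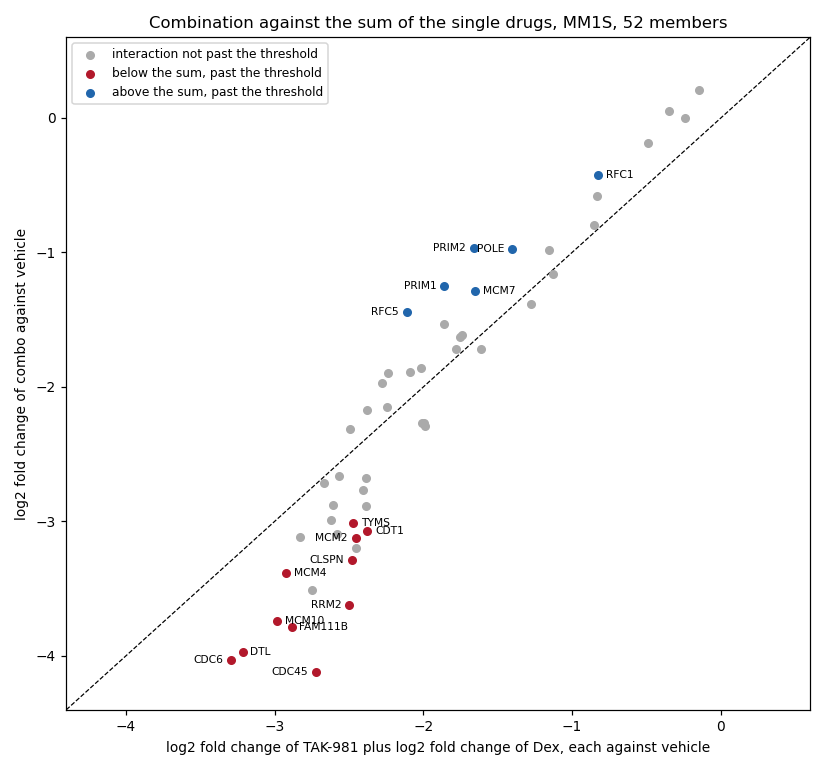
Log2 fold change of combo against vehicle in MM1S (y axis) plotted against the sum of the log2 fold changes of TAK-981 and Dex (x axis) for 52 members, with a dashed line where they are equal. Red points (11, from CDC45 to MCM4) lie below the line and blue points (6, such as PRIM2 and RFC5) above it, both past the threshold, and grey points did not pass.

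MM1R carried more replication transcripts than MM1S before any drug. With vehicle, 46 members were higher in MM1R than in MM1S, beside 25.6% of all genes, and 1 was lower, beside 22.6%. The median was 0.49, beside 0.01 over all genes. RRM2 had the largest difference (1.11, SE 0.09, edgeR adjusted p = 4.0e-08), going from 490 and 487 CPM to 1022 and 1084 CPM. ORC1 (0.83) and TYMS (0.74, SE 0.07, edgeR adjusted p = 2.2e-07) followed, and CLSPN was higher by 0.63 (SE 0.05, edgeR adjusted p = 4.8e-08). RFC1 was the member that was lower (-0.36, SE 0.06, edgeR adjusted p = 6.2e-05), at 158 and 165 CPM in MM1R and 214 and 199 CPM in MM1S. ORC2 (0.06), ORC3 (0.23), ORC4 (-0.27), POLA1 (0.09) and POLE2 (0.36) did not pass. FEN1 (0.40) passed with all libraries but in none of its 4 fits with 1 library left out, where it lay between 0.38 and 0.43, and TK1 (0.52) did not pass without MM1S vehicle replicate 1 (0.51). After TAK-981 the summed level of MM1R (3793 and 3811 CPM) was still above that of MM1S with Dex (2968 and 3233 CPM). The line difference with vehicle was not particular to the members. Of 20 mitotic genes read beside them, 18 were higher in MM1R and 0 lower (median 0.36). Of 10 reference genes, 6 were higher and 0 lower (median 0.19).

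Members with and without the E2F-type letters can be set side by side as a description. After TAK-981 in MM1S, the median log2 fold change was -1.42 over 20 members with the letters and -1.14 over 25 without. In MM1R the medians were -1.04 and -0.96. With combo in MM1S they were -2.74 and -1.72, and with Dex in MM1S -0.86 and -0.78. The ranges overlapped widely. With combo in MM1S they ran from -4.03 (CDC6) to 0.20 (ORC3) with the letters and from -4.12 (CDC45) to 0.05 (ORC4) without. CDC45 had the lowest value of all and carried no match in its window.

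MCM7 also hosts the gene of miR-25, a miRNA that the study followed, with its small RNA libraries not analysed here. MIR25, MIR93 and MIR106B lie within MCM7 on the same strand (hg19, chr7:99690404-99699427 for MCM7, minus strand). Their mature products are shown with the seed, bases 2 to 8, in capitals, and miR-93 and miR-106b share theirs. MCM7 read 209 and 215 CPM with vehicle in MM1S, 98.7 and 115 CPM with TAK-981, 133 and 135 CPM with Dex and 82.7 and 90.8 CPM with combo. In MM1R the same groups read 296 and 311, 156 and 158, 280 and 308, and 158 and 170 CPM. The host transcript was lower in every TAK-981 and combo library than in any vehicle library of its line. The loci themselves held 2 to 25 (MIR25), 0 to 7 (MIR93) and 2 to 9 (MIR106B) counts per library, too few to compare, and total RNA libraries of this kind do not measure mature miRNAs. The MCM7 promoter stretch (chr7:100101398-100101487, GRCh38.p14) holds 1 E2F-type match, in capitals, and the E-box CACGTG in small letters. The window also holds an E2F-type match further upstream, at bases -187 to -180 from the start site.
miR-25-3p: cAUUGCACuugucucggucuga
miR-93-5p: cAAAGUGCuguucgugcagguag
miR-106b-5p: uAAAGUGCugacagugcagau
MCM7 promoter: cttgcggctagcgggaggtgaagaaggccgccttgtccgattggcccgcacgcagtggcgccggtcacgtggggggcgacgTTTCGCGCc

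Other genes of replication and nucleotide metabolism were read from a list of 44, all tested. After TAK-981, 36 fell and 5 rose in MM1S (median -0.92), beside 23.7% and 25.2% of all genes. In MM1R 36 fell and 4 rose (median -0.77), beside 27.6% and 25.8%. With combo in MM1S 35 fell and 3 rose (median -1.27), beside 29.5% and 30.8%. With Dex in MM1S 34 fell and 6 rose (median -0.57), beside 21.5% and 20.8%. UHRF1, which carries DNA methylation across the fork (-1.86 in MM1S and -1.58 in MM1R), CDC7, the kinase that fires origins (-1.95 and -0.95), and PCLAF, a PCNA-associated factor (-1.89 and -1.25), fell most deeply among those named. SLBP, the histone mRNA binding protein, rose by 1.31 in MM1S and 0.68 in MM1R after TAK-981. SAMHD1, which degrades deoxynucleotides, rose by 0.36 and 0.25. TK2, the mitochondrial thymidine kinase, rose by 0.20 and 0.24. In MM1S, POLD4 (0.53) and MCM9 (0.33) rose as well, and POLE4 (0.28) did not pass. The MM1R values of POLD4, MCM9 and POLE4 are not given here. RRM2B, the p53-inducible small subunit of ribonucleotide reductase, read 0.04 and 0.22 and did not pass. TK2 and RRM2B, unlike TK1 and RRM2, did not fall in either line after TAK-981.

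Among regulators of this programme, 31 of 32 listed genes were tested. After TAK-981 in MM1S 23 fell and 3 rose (median -0.75), beside 23.7% and 25.2% of all genes. In MM1R 19 fell and 6 rose (median -0.56), beside 27.6% and 25.8%. E2F1 (-1.59 in MM1S and -1.22 in MM1R), E2F8 (-1.72 and -1.08) and the E2F partner TFDP1 (-0.87 and -1.11) were among those that fell. With combo in MM1S, E2F1 fell by 3.67. MYC RNA fell by 0.68 in MM1S and 0.56 in MM1R after TAK-981, and rose by 0.39 after Dex in MM1S. The study reported less c-Myc protein after Dex in MM1S, and these libraries do not measure protein. RBL2, a pocket protein of resting cells, rose by 0.26 and 0.22, and E2F5 rose by 0.94 and 1.02. All 20 listed mitotic genes also fell after TAK-981 in both lines, with medians of -1.27 and -0.86, after Dex in MM1S (-1.02) and with combo in MM1S (-2.62). In MM1S the shares of all genes that fell were 21.5% after Dex and 29.5% with combo.

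Reference genes were not level either. Of 10, 6 fell and 1 rose after TAK-981 in MM1S (median -0.29), beside 23.7% and 25.2% of all genes. In MM1R 7 fell and 1 rose (median -0.33), beside 27.6% and 25.8%. GAPDH fell in both lines (-0.75 and -0.74) and with combo in MM1S (-1.36), while TBP (-0.14 and -0.18) did not pass in either line. B2M rose by 0.94 and 1.06. All values here are relative to the other genes of a library, so a fall says that a gene lost share, and a change in total RNA per cell was not tested.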

How the data were processed

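Total RNA was taken after 48 h with the miRNeasy kit and sequenced as Ribo-Zero libraries. The authors deposited whole-number read counts per gene, without normalization, for 23354 genes with hg19 positions. The submitters' processing notes name bcl2fastq 2.18.0.12, STAR 2.6.0, HTSeq 0.6.0, edgeR 3.28.1 and hg19. Annotation release and strand use in counting are not given in the sources used here. Groups came from the sample labels, and 0 columns belonged to other samples.

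Counts of all 16 libraries were filtered with filterByExpr, scaled by TMM and fitted with 1 term per group in edgeR 4.0.16 (R 4.3.3, robust glmQLFit, glmQLFTest), leaving 8 residual degrees of freedom. P-values were adjusted by Benjamini-Hochberg over all 14215 genes tested, with a threshold of 0.05 and no fold threshold, and only member and list rows were then read. Interactions were contrasts of the same fit. Levels of single members in percent of vehicle come from fitted fold changes, and CPM is scaled by TMM. The code was tested on simulated data. Alternatives were RLE factors, library size only, no filter, the replicate number as a block, DESeq2 1.42.0, a fit of only the groups compared, and each library left out. With 1 library left in a group, its spread is assumed to be that of the other groups.

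Library values are given for RRM2 and PCNA, for the members of each of 9 roles with the smallest and largest p for TAK-981 in MM1S, for members that moved against the median past the threshold against vehicle (there were 0), and for up to 3 members with the smallest p in each interaction and between the lines with vehicle. The members, roles and lists were chosen with earlier results of these data known. Promoters and miRNAs came from RefSeq on GRCh38.p14, matched by symbol, and the 2 builds were not mixed.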

Additional observations from a re-analysis of the deposited data

Results flagged for a closer look

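The effect of TAK-981 differed between the lines for 15 members by the interaction test, each less negative in MM1R, beside 3.19% of all genes. The difference was 0.73 for FAM111B, 0.71 for DTL and 0.67 for CLSPN on the log2 scale. The effect of Dex differed between the lines for 44 members, again less negative in MM1R, beside 15% of all genes. That difference was 1.53 for CDC6, 1.35 for DTL and 1.09 for FAM111B. Mitotic genes read beside the members differed in the same direction, with medians of 0.45 for TAK-981 and 0.99 for Dex. The effect of TAK-981 in MM1S differed with and without Dex for 17 members. In 11, combo lay below the sum of the single log2 fold changes, beside 9.48% of all genes, and in 6 above it, beside 5.47%. Interactions were -1.12 for RRM2, -0.90 for FAM111B and -0.81 for CLSPN. Groups of 2 libraries were too small to look for a single library that stands apart.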

How the results depend on the processing

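The comparisons against vehicle, Dex and TAK-981 and between the lines kept their direction, and their count of members within 1.5 times, under each alternative, except that the uncalled median of Dex in MM1R crossed 0 (-0.08 to 0.03 with 1 library left out). The line difference in the TAK-981 response was the least stable: 15 members became 24 with library size only, 23 without a filter, and 7 to 26 when 1 library was left out. The interaction of TAK-981 and Dex in MM1S went from 17 members to 11 with only the groups compared and to 12 to 27 with 1 library left out, and its median ranged from -0.15 to 0.068. Leaving out 1 library gave medians of -1.45 to -1.21 for TAK-981 in MM1S, -0.95 to -0.77 for Dex in MM1S, -0.87 to -0.73 for combo against TAK-981 in MM1S, -1.43 to -1.22 for combo against Dex in MM1S and 0.24 to 0.45 for cell line by TAK-981. ORC4 after TAK-981 in MM1S ranged from -0.46 to 0.13. The cause of these shifts was not tested, and counts of members under the alternatives are given without the share of all genes. RFC1 with combo in MM1R did not pass without MM1R vehicle replicate 2 (-0.19).

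Over all genes, differences between replicates correlated at -0.01 to 0.26 between groups of a line, highest between MM1S with TAK-981 and MM1S with Dex. The summed level of the members was higher in replicate 2 in every group except MM1S vehicle. Whether replicate numbers pair the libraries is thus not settled. With the replicate block, 28 members passed for cell line by TAK-981 and 26 for TAK-981 by Dex in MM1S, and it moved no other count by over 1.5 times. Depth limited POLE2 most, with 11 counts in its lowest library, while 41 members held at least 100 counts in every library.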
